A study of Mus musculus with 22 samples.

Results

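The metabotropic glutamate receptors are the G protein-coupled receptors for glutamate, and 7 genes of the family, Grm2 to Grm8, are described here. They were taken by name, without use of any level, out of 21664 protein-coding genes that had a 5mC level. At their annotated positions they overlapped 35 of the 25664 tested bins of 100 kb, in which 5mC was given, and 10 of the 2581 tested bins of 1 Mb, in which 5hmC was given. The flanks of a gene were the 10 bins of 100 kb that lay within 500 kb of its ends and did not overlap it.

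All mice were female, of the strain C57BL/6 and 8 weeks old, and the labels name no transgene or treatment. The tissues were the whole cerebral cortex without the hippocampus, the whole olfactory bulb and the whole cerebellum, with the replicates of a tissue from independent mice. Libraries of different tissues may share a mouse. 5mC was measured by oxBS-seq, in which 5hmC is oxidized before bisulfite conversion, which leaves 5mC as the base that still reads as C, with 3 libraries from cortex and 2 from each other tissue. 5hmC was measured by TAB-seq, in which a glucose shields 5hmC while 5mC is oxidized, with 3 libraries per tissue. The tissues were not checked against marker genes, since no expression values were used here. Neurons and glia of many kinds are mixed in each tissue, so a different make-up of cells and a different level within a cell type cannot be told apart in these values.

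Glutamate opens ion channels directly through its ionotropic receptors, while the metabotropic receptors act more slowly through G proteins. Group I receptors, such as Grm5, couple to Gq and phospholipase C and sit mostly on the postsynaptic side. Group II (Grm2 and Grm3) and group III (Grm4, Grm6, Grm7 and Grm8) couple to Gi/o, lower cyclic AMP and often limit transmitter release from the presynaptic side. In the cerebellum, Grm4 is known for its expression in granule cells, whose parallel fibres form most of the excitatory synapses there, and Grm6 is known from the ON bipolar cells of the retina.

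The genes differ widely in size and in the DNA around them. Grm7 (ENSMUSG00000056755.13, chr6:110645581-111567230, plus strand, GRCm38) spans 921.65 kb, and Grm8 (ENSMUSG00000024211.15, chr6:27275119-28135178, minus strand) spans 860.06 kb. Grm5 (ENSMUSG00000049583.15, chr7:87584168-88134907, plus strand) spans 550.74 kb and Grm3 (ENSMUSG00000003974.6, chr5:9485541-9725170, minus strand) 239.63 kb. In these 4 genes exons make up between 0.639% and 1.86% of the span, so that the bins are almost wholly intronic. Grm4 (ENSMUSG00000063239.17, chr17:27422387-27521403, minus strand) spans 99.017 kb. Grm6 (ENSMUSG00000000617.14, chr11:50850685-50866208, plus strand) spans 15.524 kb and Grm2 (ENSMUSG00000023192.12, chr9:106643095-106656082, minus strand) 12.988 kb. Grm6 and Grm2 each fill a small part of a single bin, which they share with 5 and 3 other protein-coding genes, so the values of these bins are not those of the receptor gene alone. The bins of Grm5 and Grm7 held on average 456 and 462 CpG sites, against a median of 751 over all bins, while those of Grm4 held 1864, more than 99.3% of all bins.

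The start of a gene is often a CpG-rich promoter inside a wide, CpG-poor and highly methylated span. The promoters of Grm7, Grm8 and Grm3 are shown because the bins with their starts are compared below with the rest of the gene. Each runs from 250 bases before to 50 bases after a RefSeq start (GRCm38.p6), 5′ to 3′ on the strand of the gene, with every CG in capitals. They lie at chr6:110645348-110645647 (Grm7, plus strand), chr6:28135097-28135396 (Grm8, minus strand) and chr5:9725303-9725602 (Grm3, minus strand). Where the table had several starts, as for Grm7 (2) and Grm8 (3), the one nearest to the annotated start was taken.
Grm7: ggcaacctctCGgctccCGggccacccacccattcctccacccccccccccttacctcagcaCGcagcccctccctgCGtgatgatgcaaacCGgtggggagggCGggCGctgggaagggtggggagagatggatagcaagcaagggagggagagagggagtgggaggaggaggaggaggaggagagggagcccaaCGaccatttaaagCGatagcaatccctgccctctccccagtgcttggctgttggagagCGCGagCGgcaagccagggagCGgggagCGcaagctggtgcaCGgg
Grm8: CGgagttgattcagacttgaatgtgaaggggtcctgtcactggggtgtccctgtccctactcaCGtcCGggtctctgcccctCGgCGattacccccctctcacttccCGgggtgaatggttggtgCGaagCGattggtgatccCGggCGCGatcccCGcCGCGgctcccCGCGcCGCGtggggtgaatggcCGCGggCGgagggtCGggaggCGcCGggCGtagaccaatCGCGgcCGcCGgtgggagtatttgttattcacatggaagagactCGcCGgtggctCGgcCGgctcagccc
Grm3: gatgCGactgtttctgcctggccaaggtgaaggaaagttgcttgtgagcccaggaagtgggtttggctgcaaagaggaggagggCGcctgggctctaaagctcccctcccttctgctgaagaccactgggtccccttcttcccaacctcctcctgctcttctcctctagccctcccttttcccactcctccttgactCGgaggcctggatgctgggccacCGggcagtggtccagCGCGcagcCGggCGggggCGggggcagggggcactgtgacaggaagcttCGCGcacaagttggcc
CG, which reads the same on both strands, was found 33 times in the promoter of Grm8, 15 times in that of Grm7 and 11 times in that of Grm3. The promoters of Grm2 and Grm6 held 22 and 4. Over all 32851 promoters in the table the median was 7, 94.6% held at least 1, and 8.56% held as many as that of Grm8. Grm4 and Grm5 had no entry.

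Levels were deposited as fractions with no reads or coverage, so the depth behind a bin is unknown and the spread between libraries, as the SD, is the error used throughout. Over the 25664 bins, mean 5mC was lowest in cortex (0.677 ± 0.0147, SD, n = 3), followed by the olfactory bulb (0.707 ± 0.00286, SD, n = 2) and the cerebellum (0.731 ± 0.0114, SD, n = 2). Mean 5hmC over the 2581 bins ran the other way, with 0.163 ± 0.00946, 0.145 ± 0.00431 and 0.0949 ± 0.00176 in the same order (SD, n = 3 each). Tissues were compared by limma on the scale log2(level/(1 − level)) over all bins or genes, with all tissues in one fit, and called at a Benjamini-Hochberg adjusted p under 0.05. The median difference over all 100 kb bins was 0.22 for olfactory bulb minus cortex, 0.43 for cerebellum minus cortex and 0.19 for cerebellum minus olfactory bulb on this scale. For 5hmC the medians were -0.24, -0.97 and -0.72. Calls were therefore also made after each library was centred on its own median, which left 47.1% (in place of 94.5%) of the 5mC calls of olfactory bulb minus cortex, 51.4% (94.2%) of those of cerebellum minus cortex and 51.0% (82.1%) of those of cerebellum minus olfactory bulb on the higher side. Of the 5hmC calls, 52.3% in place of 4.59%, 55.6% in place of 0.435% and 56.6% in place of 1.29% were then on the higher side.

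The 5mC level of a gene, the mean over its bins, separated Grm4 from the other 6 receptor genes in the cerebellum. From cortex to cerebellum, 6 of the 7 genes rose (55% of all genes were called higher) and 1, Grm4, fell (4.27% of all genes). From cortex to olfactory bulb, 3 genes rose, namely Grm3, Grm6 and Grm7 (26.4% of all genes), and none was called lower (0.868% of all genes), although 1, Grm4, had an unadjusted p under 0.05 in limma on that side. From olfactory bulb to cerebellum, Grm2, Grm5, Grm7 and Grm8 rose (18% of all genes) and Grm4 fell (7.69% of all genes). Median differences over the 7 genes were 0.0385, 0.0811 and 0.0463, against 0.0299, 0.0444 and 0.0118 over all genes. After centring, no gene changed direction in these 3 comparisons. The calls of Grm2 and Grm6 from cortex to cerebellum, of Grm6 from cortex to olfactory bulb and of Grm7 from olfactory bulb to cerebellum were then lost, and Grm4 (-0.0720) and Grm8 (-0.0408) were called lower in olfactory bulb than in cortex.

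**Figure D1:**
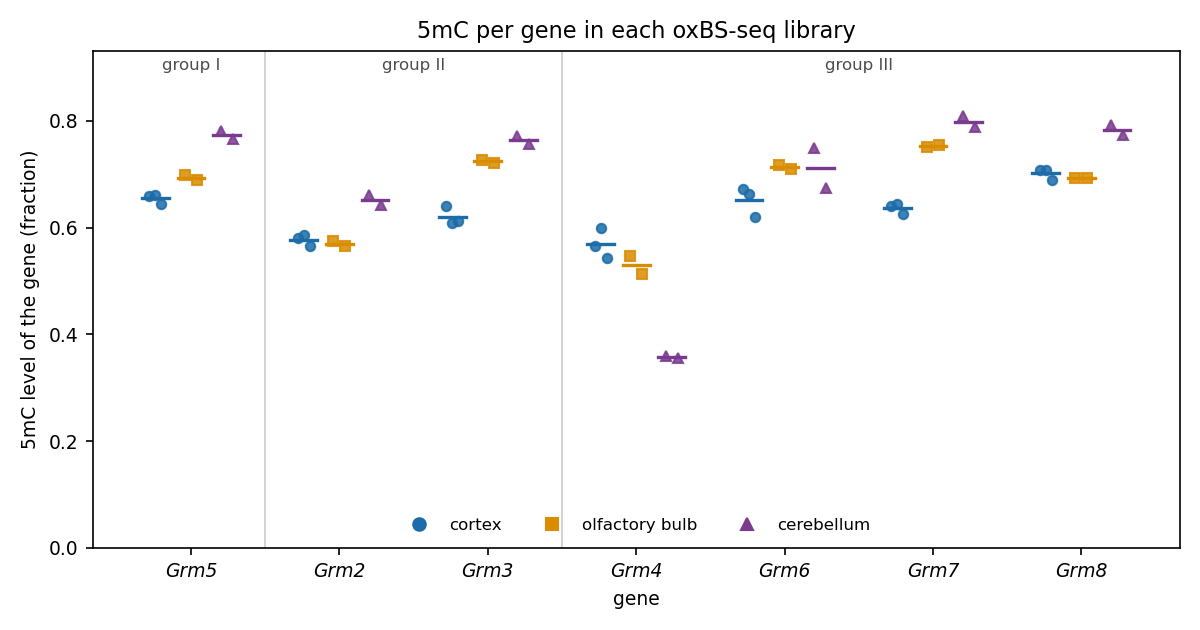
5mC level of each receptor gene (vertical axis, fraction from 0) in each oxBS-seq library, with a point per library and a bar at the mean of the tissue, and the genes on the horizontal axis ordered by receptor group. In cerebellum Grm4 sits at 0.355 and 0.360, below every other point, while the other 6 genes have cerebellum means from 0.652 to 0.799.

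From cortex to cerebellum, 33 of the 35 bins were higher (71.9% of all bins) and 2, both of Grm4, were lower (4.44% of all bins), and in all 35 the libraries of the tissues did not overlap. From cortex to olfactory bulb, 17 bins were higher (37.6% of all bins) and 2 were lower (2.18% of all bins), with no overlap of libraries in 23. From olfactory bulb to cerebellum, 26 were higher (35.3% of all bins) and 2 were lower (7.69% of all bins), with no overlap in 32. The share of all bins whose libraries did not overlap is not given here, so the counts without overlap do not set these genes apart. With the libraries centred, the counts of called bins were 27 higher and 2 lower, 13 higher and 8 lower, and 22 higher and 2 lower in the same order. Over all 25664 bins they were 6606 and 6235, 2261 and 2541, and 5671 and 5459. Centring also turned the direction of 9 bins from cortex to olfactory bulb (4 of Grm5, 4 of Grm8 and 1 of Grm4), of 1 bin of Grm8 from cortex to cerebellum and of 2 bins of Grm3 from olfactory bulb to cerebellum. In log2(level/(1 − level)) the standard error of all 35 bins lay between 0.117 and 0.118 for the comparisons with cortex, so a p-value here hardly reflects the spread of the single bin. Bins of a gene share their libraries and neighbours and are not replicates.

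**Figure D2:**
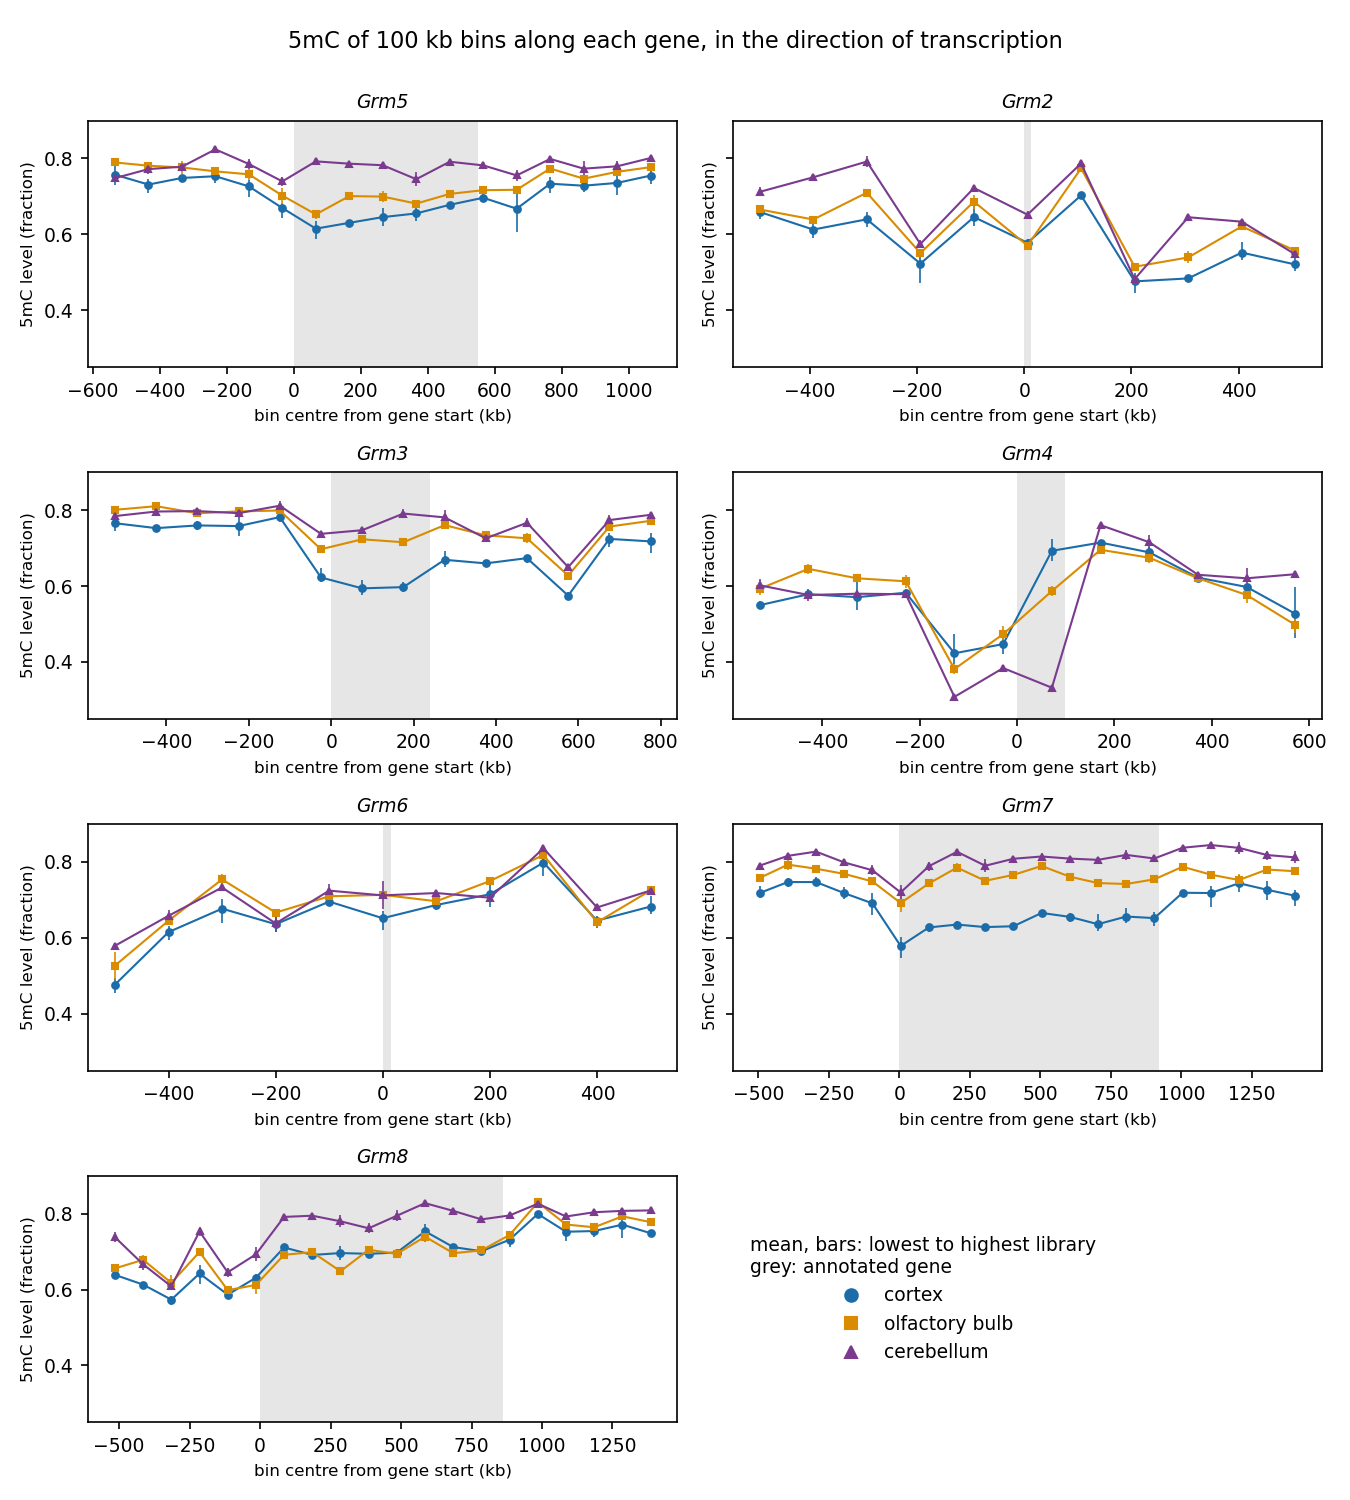
5mC level (vertical axis, fraction, from 0.25 to 0.9) of each 100 kb bin along the 7 genes and their flanks, plotted against the distance of the bin's centre from the gene's start in kb in the direction of transcription. Points are tissue means, bars run from the lowest to the highest library and the grey area is the gene. In Grm4 the cerebellum falls to 0.332 in the bin that holds most of the gene, where cortex is at 0.693, and in Grm7 cortex runs below the other tissues at 0.578 to 0.666.

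Grm5, the group I receptor described here, was lowest in cortex and highest in cerebellum. Its 5mC level was 0.659, 0.662 and 0.645 in the cortex libraries, 0.698 and 0.690 in olfactory bulb and 0.782 and 0.766 in cerebellum. The 3 tissues were fully separated. The cerebellum exceeded cortex by 0.118 (log2 0.85, standard error 0.11, adjusted p = 8.22e-09) and olfactory bulb by 0.0799 (adjusted p = 0.000164). The difference of 0.0385 between olfactory bulb and cortex was not called (adjusted p = 0.0794). With only the bins wholly inside the gene it was 0.0434 and called (adjusted p = 0.0142), the only alternative in which it was. With centred libraries it was 0.00646 (adjusted p = 0.717). After centring, cerebellum exceeded cortex by 0.0621 and was still called. All 7 bins of the gene rose from cortex to cerebellum, by 0.0702 to 0.177, where 71.9% of all bins were called higher. The largest rise was in the bin next to the start, chr7:87600001-87700000, from 0.615 ± 0.0243 (SD, n = 3) to 0.792 ± 0.0118 (SD, n = 2). No other coding gene lies in that bin.

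Grm2 and Grm3, the group II receptors, had different profiles. Grm2 was measured only through the bin chr9:106600001-106700000, which also holds Iqcf6, Rad54l2 and Tex264. Its level was 0.580, 0.586 and 0.567 in cortex, 0.576 and 0.565 in olfactory bulb and 0.661 and 0.642 in cerebellum. Cortex and olfactory bulb overlapped, with a difference of -0.00748 (adjusted p = 0.765), and the cerebellum lay above both. It exceeded cortex by 0.0741 (adjusted p = 0.000571) and olfactory bulb by 0.0816 (adjusted p = 0.00162), the latter not called without the second olfactory bulb library (adjusted p = 0.0509) or the first cerebellum library (adjusted p = 0.0571). With centred libraries the difference from cortex was 0.0177 and not called.

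Grm3, which is also prominent in astrocytes, was lowest in cortex. Its 5mC level was 0.641, 0.609 and 0.612 in cortex, 0.727 and 0.722 in olfactory bulb and 0.772 and 0.757 in cerebellum. The 3 tissues did not overlap. Olfactory bulb exceeded cortex by 0.103 (log2 0.68, standard error 0.11, adjusted p = 1.52e-05), the 153rd largest rise of the 21664 genes, and cerebellum exceeded cortex by 0.143 (adjusted p = 1.83e-10). After centring these were 0.0713 and 0.0871, both called. Cerebellum and olfactory bulb differed by 0.0401, which was not called (adjusted p = 0.0609). It was called with bins weighted by overlap (0.0470, adjusted p = 0.0273), with only bins wholly inside (0.0498, adjusted p = 0.00146) and without the third cortex library (adjusted p = 0.0161). With centred libraries it was 0.0158 and not called (adjusted p = 0.316), nor was it on the fraction scale (adjusted p = 0.119). All 4 bins rose from cortex to olfactory bulb and to cerebellum (37.6% and 71.9% of all bins were called higher). Only 1 of the 4, chr5:9500001-9600000, was also called higher from olfactory bulb to cerebellum (35.3% of all bins). It went from 0.715 ± 0.00289 (SD, n = 2) to 0.791 ± 0.0168 (SD, n = 2, adjusted p = 4.08e-05).

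Grm4, a group III receptor, was the receptor gene with the lowest 5mC in cerebellum. Its level was 0.567, 0.600 and 0.543 in cortex, 0.547 and 0.513 in olfactory bulb and 0.360 and 0.355 in cerebellum. Both cerebellum libraries lay far below the other 5, whereas cortex and olfactory bulb overlapped. The cerebellum was below cortex by a difference of -0.212 (log2 -1.25, standard error 0.12, adjusted p = 1.69e-13), the 5th largest fall of the 21664 genes, and below olfactory bulb by a difference of -0.172 (adjusted p = 2.76e-09). In cerebellum only 0.766% of the genes had a lower level. The difference of -0.0399 between olfactory bulb and cortex was not called (adjusted p = 0.114), but it was called when the bins were weighted by their overlap with the gene (-0.0775, adjusted p = 0.00285) or the third cortex library was left out (-0.0532, adjusted p = 0.0271).

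The fall in Grm4 was mostly in 1 bin. The bin chr17:27400001-27500000, which holds 77614 bases of the gene including its end and no other coding gene, was at 0.688, 0.725 and 0.666 in cortex, 0.599 and 0.575 in olfactory bulb and 0.339 and 0.325 in cerebellum. The tissues did not overlap in any pair, and the steps were -0.106 from cortex to olfactory bulb (adjusted p = 7.81e-07) and -0.361 from cortex to cerebellum (log2 -2.19, standard error 0.12, adjusted p = 1.11e-61). The latter was the 2nd largest fall of the 25664 bins on the log2 scale. The bin chr17:27500001-27600000, with the start of Grm4 and also Hmga1, Nudt3, AI413582 and RPS10-NUDT3, was low in all tissues, at 0.447 ± 0.0276 in cortex (SD, n = 3), at 0.473 ± 0.0313 in the olfactory bulb and at 0.384 ± 0.00302 in the cerebellum (SD, n = 2 each). Its fall from cortex to cerebellum was -0.0632 (adjusted p = 0.00244). On the side of the start, the next bin, chr17:27600001-27700000, with Pacsin1, Rps10 and part of Nudt3, fell too, from 0.423 ± 0.0433 (SD, n = 3) to 0.308 ± 0.0114 (SD, n = 2, adjusted p = 1.08e-08). On the other side, past the end of the gene, chr17:27300001-27400000 rose from 0.715 ± 0.00520 (SD, n = 3) to 0.761 ± 0.00747 (SD, n = 2, adjusted p = 0.00553).

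Grm6, the receptor of retinal ON bipolar cells, was measured through the bin chr11:50800001-50900000, which also holds Adamts2 and the zinc finger genes Zfp2, Zfp354c, Zfp454 and Zfp879. Its level was 0.672, 0.663 and 0.620 in cortex, 0.717 and 0.710 in olfactory bulb and 0.749 and 0.675 in cerebellum. The 2 cerebellum libraries differed by more than the tissues did. Olfactory bulb exceeded cortex by 0.0616 (adjusted p = 0.0112) and cerebellum exceeded cortex by 0.0602 (adjusted p = 0.00357). The latter was 0.0233 and not called without the first cerebellum library (adjusted p = 0.463), and the former was not called without either olfactory bulb library (adjusted p = 0.132 and 0.0551).

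Grm7, a presynaptic receptor with low affinity for glutamate, was the gene most clearly lowest in cortex. Its 5mC level was 0.641, 0.644 and 0.625 in cortex, 0.751 and 0.755 in olfactory bulb and 0.809 and 0.789 in cerebellum. No tissue overlapped another. Olfactory bulb exceeded cortex by 0.116 (log2 0.80, standard error 0.11, adjusted p = 5.66e-07), the 66th largest rise of all genes, and cerebellum exceeded cortex by 0.163 (log2 1.18, standard error 0.11, adjusted p = 4.45e-13), the 74th largest. After centring these were 0.0842 and 0.106. Cerebellum exceeded olfactory bulb by 0.0463 (adjusted p = 0.0154), which was not called on the fraction scale (adjusted p = 0.0655) or without either olfactory bulb library or the first cerebellum library (adjusted p = 0.102 to 0.234). All 10 bins rose from cortex to olfactory bulb, by 0.0858 to 0.150, and to cerebellum, by 0.141 to 0.192 (37.6% and 71.9% of all bins were called higher). These calls held in all 10 bins after centring, when 2261 and 6606 of all 25664 bins were called higher. The bin chr6:110800001-110900000, which holds no exon of the gene, was at 0.644, 0.631 and 0.630 in cortex, 0.796 and 0.774 in olfactory bulb and 0.832 and 0.821 in cerebellum, the 25th largest rise of all bins from cortex to olfactory bulb.

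Grm8 did not follow Grm7, the gene next to it in size. Its 5mC level was 0.708, 0.709 and 0.689 in cortex, 0.693 and 0.693 in olfactory bulb and 0.793 and 0.773 in cerebellum. Cortex and olfactory bulb overlapped, with a difference of -0.00876 (adjusted p = 0.681), and both cerebellum libraries lay above them. Cerebellum exceeded cortex by 0.0811 (adjusted p = 7.36e-06; 0.0247 after centring, still called) and olfactory bulb by 0.0899 (adjusted p = 2.17e-05). All 10 bins rose from cortex and from olfactory bulb to cerebellum (71.9% and 35.3% of all bins were called higher). From cortex to olfactory bulb 1 bin of 10 was called, on the lower side (2.18% of all bins). This bin, chr6:27800001-27900000, fell from 0.696 ± 0.0185 (SD, n = 3) to 0.648 ± 0.000271 (SD, n = 2, adjusted p = 0.0239). After centring 6 of the 10 were called lower, as were 2541 of all 25664 bins. Grm7 and Grm8 lie on the same chromosome, and none of their bins or flanks is shared.

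The flanks were used to see whether the gene or its whole region moved. The flanks of Grm7 were at 0.724 ± 0.0160 in cortex (SD, n = 3), at 0.771 ± 0.00176 in the olfactory bulb and at 0.816 ± 0.0117 in the cerebellum (SD, n = 2 each). Of its 10 flanking bins 9 were called higher from cortex to olfactory bulb (37.6% of all bins) and 10 to cerebellum (71.9% of all bins). In cortex the gene lay below its flanks by -0.0936, -0.0882 and -0.0806, and this gap was -0.0217 and -0.0152 in olfactory bulb and -0.0150 and -0.0189 in cerebellum. The gap closed by 0.0690 in olfactory bulb (standard error 0.00966, adjusted p = 0.00558) and by 0.0705 in cerebellum (adjusted p = 0.00135). Without the second olfactory bulb library the first of these was not called (0.0657, adjusted p = 0.0509).

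Grm3 lay below its flanks by -0.0823, -0.113 and -0.0929 in cortex, -0.0366 and -0.0383 in olfactory bulb and -0.00511 and -0.00375 in cerebellum. The cortex libraries were lowest and the cerebellum libraries were level with the flanks. The difference was 0.0586 for olfactory bulb minus cortex (adjusted p = 0.0188, not called without either olfactory bulb library, adjusted p = 0.101 and 0.0907) and 0.0916 for cerebellum minus cortex (adjusted p = 0.000791). Grm5 shared this gap in cortex, at -0.0803, -0.0874 and -0.0663, and in olfactory bulb, at -0.0689 and -0.0728. In cerebellum it was -0.00933 and -0.00555, a difference of 0.0706 from cortex (adjusted p = 0.00175) and of 0.0635 from olfactory bulb (adjusted p = 0.00471, not called with flanks of 200 kb at 0.0429, adjusted p = 0.0744).

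Grm8 was above its flanks in cortex, at 0.00983, 0.0167 and 0.0154, and in cerebellum, at 0.0388 and 0.0373, but below them in olfactory bulb, at -0.0229 and -0.0279. Cerebellum minus olfactory bulb was 0.0634 (adjusted p = 0.00294). Olfactory bulb minus cortex was -0.0394 (adjusted p = 0.0411), which was not called when any single library was left out (adjusted p from 0.0679 to 0.158). Cerebellum minus cortex was 0.0240 and was not called (adjusted p = 0.0926). Grm2 was close to its flanks in cortex, at -0.0141, -0.00301 and 0.00615, and in cerebellum, at -0.00722 and -0.0181, and lower in olfactory bulb, at -0.0494 and -0.0614. The differences of olfactory bulb minus cortex (-0.0517, adjusted p = 0.0240) and cerebellum minus olfactory bulb (0.0427, adjusted p = 0.0303) were each lost in at least 4 of the 7 fits that left out a library.

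Grm4 was close to its flanks in cortex, at -0.0135, -0.00388 and -0.0289, lower in olfactory bulb, at -0.0453 and -0.0780, and far lower in cerebellum, at -0.248 and -0.237. The difference was -0.227 for cerebellum minus cortex (standard error 0.0129, adjusted p = 2.31e-05) and -0.181 for cerebellum minus olfactory bulb (adjusted p = 6.48e-05), and that for olfactory bulb minus cortex, -0.0462, was not called (adjusted p = 0.0684). The flanks of Grm4 differed by 0.0148 between cerebellum and cortex, with overlapping libraries. Grm6 did not differ from its flanks in any call (adjusted p from 0.310 to 0.805). In all, 2 genes were called higher and 2 lower relative to their flanks from cortex to olfactory bulb (3.27% and 2.58% of all genes), 3 higher and 1 lower from cortex to cerebellum (11.7% and 11.2%) and 3 higher and 1 lower from olfactory bulb to cerebellum (9.94% and 10.9%).

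**Figure D3:**
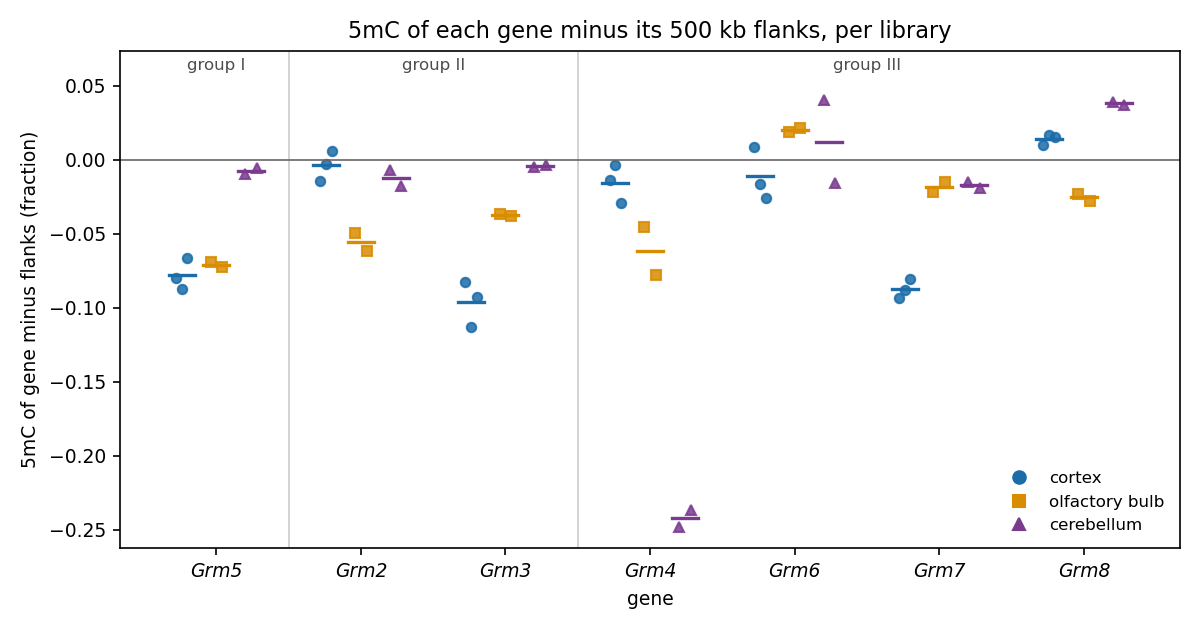
5mC level of each receptor gene minus the mean of its 10 flanking bins (vertical axis, fraction) in each oxBS-seq library, with a bar at the mean of the tissue and a line at 0. Cortex lies lowest for Grm3, Grm5 and Grm7 (means -0.0961, -0.0780 and -0.0875), olfactory bulb for Grm2 and Grm8 (-0.0554 and -0.0254), and cerebellum for Grm4 (-0.242).

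The bin with the start of the gene was set against the mean of the other bins in the 4 genes with at least 3 bins, without a test. These 100 kb bins held only 15833 bases of Grm5, 25170 of Grm3, 35178 of Grm8 and 54420 of Grm7. The rest of each lies upstream of the gene. In Grm7 and Grm8, whose promoters are printed above, the start bin was lower in all 7 libraries. For Grm8 the difference was -0.0732, -0.0843 and -0.0781 in cortex, -0.115 and -0.0650 in olfactory bulb and -0.0900 and -0.110 in cerebellum. The start bin of Grm8 also held the most CpG sites, 956 against a mean of 512 in the other 9. For Grm7 the means were -0.0644 ± 0.0213 for cortex (SD, n = 3), -0.0678 ± 0.0352 for the olfactory bulb and -0.0882 ± 0.0134 for the cerebellum (SD, n = 2 each). In Grm3 and Grm5 the start bin was level with the rest of the gene in cortex (0.00255 ± 0.00535 and 0.0160 ± 0.0331, SD, n = 3) and lower in cerebellum (-0.0355 ± 0.0209 and -0.0403 ± 0.00536, SD, n = 2). In olfactory bulb the differences were -0.0361 ± 0.00981 and 0.00929 ± 0.0282 (SD, n = 2). In Grm5 both cerebellum libraries, 1 of the 2 olfactory bulb libraries and 1 of the 3 cortex libraries were below 0.

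5hmC, the oxidized form, was read in bins of 1 Mb, which are wider than all or most of each gene. The bin of Grm2 also held 28 other coding genes, that of Grm6 21, that of Grm4 19, and those of Grm7 none. From cortex to cerebellum, 9 of the 10 bins fell (97.6% of all bins) and none was called higher (0.426% of all bins). From olfactory bulb to cerebellum 9 of 10 fell (91.8% of all bins) and none was called higher (1.2% of all bins). In limma none of the 10 bins was higher at an unadjusted p under 0.05 in either comparison. From cortex to olfactory bulb 7 fell (67.7% of all bins) and 1 rose (3.25% of all bins). On the log2 scale the standard error was 0.0732 for all 10 bins in each comparison. A p-value here therefore hardly reflects the spread of the single bin. With centred libraries, 4 bins were called higher and 6 lower from cortex to cerebellum, 4 higher and 5 lower from olfactory bulb to cerebellum, and 3 higher and 4 lower from cortex to olfactory bulb. Over all 2581 bins the counts were 1298 and 1035, 1314 and 1008, and 935 and 853 in the same order. Relative to the median of each library, the bins of Grm5 and Grm7, that of Grm3 and the first of Grm8 stayed lower in cerebellum than in cortex, while those of Grm2, Grm6 and the second of Grm8 changed direction and were called higher, as was that of Grm4.

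The 1 bin not called in any pair was that of Grm4, chr17:27000001-28000000. Its 5hmC level was 0.196, 0.213 and 0.183 in cortex, 0.198, 0.208 and 0.193 in olfactory bulb and 0.195, 0.199 and 0.206 in cerebellum. The libraries of the 3 tissues overlapped, with differences of 0.00219, 0.00242 and 0.000228 (adjusted p = 0.794, 0.742 and 0.975). In cerebellum 99.6% of the genes had a lower 5hmC level than Grm4, against 81.2% in cortex, and with centred libraries this bin was called higher than in cortex both in cerebellum (log2 1.07, adjusted p = 4.41e-10) and in olfactory bulb (log2 0.26, adjusted p = 1.78e-05). Over the same 1 Mb, 5mC was 0.592 ± 0.0154 (SD, n = 3) in cortex and 0.548 ± 0.00923 (SD, n = 2) in cerebellum.

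As the unweighted mean over the bins of a gene, Grm7 and Grm5 had the lowest 5hmC of the receptor genes in cerebellum. By single bins, the bin with 84.3% of Grm8 was at 0.0465 there. This was below both bins of Grm5 (0.0535 and 0.0515) and the second of Grm7 (0.0674), and above the first of Grm7 (0.0436). Over its 2 bins, Grm7 was at 0.178, 0.189 and 0.171 in cortex, 0.138, 0.146 and 0.141 in olfactory bulb and 0.0549, 0.0538 and 0.0579 in cerebellum. The tissues did not overlap. In the first bin, chr6:110000001-111000000, the fall from cortex to cerebellum was the 7th largest of the 2581 bins (log2 -2.15, standard error 0.07, adjusted p = 1.19e-181). Grm5 was at 0.158, 0.171 and 0.150 in cortex, 0.130, 0.143 and 0.135 in olfactory bulb and 0.0501, 0.0539 and 0.0534 in cerebellum. Grm3 fell from 0.193 ± 0.0112 in cortex to 0.142 ± 0.00492 in the olfactory bulb and 0.0895 ± 0.00288 in the cerebellum (SD, n = 3 each). The level in olfactory bulb was below that in cortex by a difference of -0.0505 (log2 -0.52, standard error 0.07, adjusted p = 1.05e-11), and after centring its difference between cerebellum and olfactory bulb turned to 0.05 on the log2 scale (adjusted p = 0.110).

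Grm8 held the bin whose 5hmC was called higher in olfactory bulb than in cortex. The bin chr6:27000001-28000000, of which 72.5% is Grm8, was at 0.151, 0.169 and 0.134 in cortex, 0.186, 0.194 and 0.182 in olfactory bulb and 0.0458, 0.0450 and 0.0487 in cerebellum. All olfactory bulb libraries lay above all cortex libraries. The rise from cortex to olfactory bulb was the 10th largest of the 2581 bins (log2 0.38, standard error 0.07, adjusted p = 1.06e-06), and the fall from olfactory bulb to cerebellum was the largest of all (log2 -2.24, adjusted p = 1.98e-196). The other bin, chr6:28000001-29000000, which holds the start of Grm8 and 7 other coding genes, was at 0.209 ± 0.0114, 0.208 ± 0.00533 and 0.159 ± 0.00258 in the same order (SD, n = 3 each) and was not called between cortex and olfactory bulb (log2 -0.01, adjusted p = 0.927), but with centred libraries it turned and was called higher in olfactory bulb (log2 0.23, adjusted p = 4.95e-06). Grm2 and Grm6 fell from 0.179 ± 0.0123 and 0.187 ± 0.0111 in cortex to 0.109 ± 0.00261 and 0.139 ± 0.00230 in cerebellum (SD, n = 3 each), but relative to the library medians both were higher in cerebellum (log2 0.22 and 0.53, adjusted p = 2.15e-06 and 1.85e-09).

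**Figure D4:**
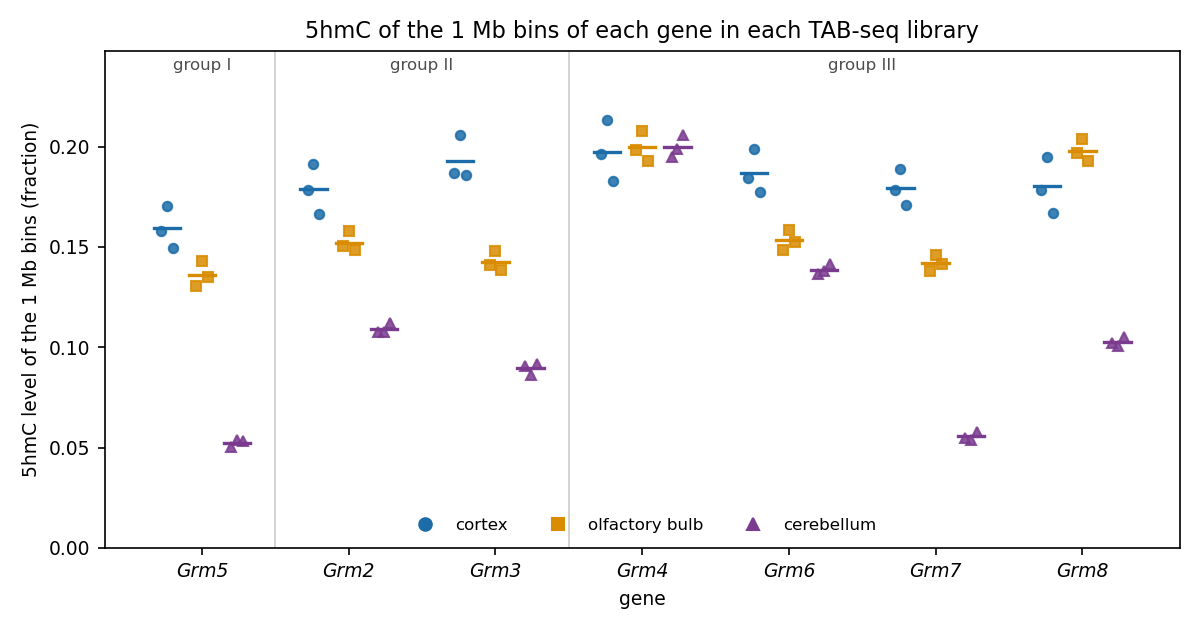
5hmC level of the 1 Mb bins of each receptor gene (vertical axis, fraction from 0) in each TAB-seq library, with a bar at the mean of the tissue. Cerebellum is lowest for 6 of the 7 genes as measured, while the means of Grm4 are 0.197, 0.200 and 0.200. Relative to the median of each library, Grm2, Grm4 and Grm6 were higher in cerebellum than in cortex, by 0.0119, 0.0840 and 0.0336. Grm8 was higher by 0.00418 as the mean of bins that went opposite ways. Its bin with 84.3% of the gene was lower (log2 -0.82) and the other was higher (log2 0.56).

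5hmC and 5mC moved in opposite directions in 10 of the 10 bins from cortex to cerebellum, in 10 of 10 from olfactory bulb to cerebellum and in 9 of 10 from cortex to olfactory bulb. Over all 2581 bins the shares were 92.0%, 82.3% and 92.1% in the same order, so opposite signs were the rule in the genome as well. Some of the differences counted were close to 0, such as those of Grm4 in 5hmC and that of Grm6 in 5mC from olfactory bulb to cerebellum (0.000186), and centring turned the 5hmC direction of 3 of the bins from cortex to cerebellum, 4 from olfactory bulb to cerebellum and 1 from cortex to olfactory bulb. Pearson's r between the differences over the 10 bins was -0.900, -0.887 and -0.851 in the same order. Each assay's points share their libraries, and in 3 genes neighbouring bins are part of the same gene, so these values only describe the 10 bins. In Grm7 5mC rose by 0.113 and 0.140 in its bins from cortex to cerebellum while 5hmC changed by -0.124 and -0.123. In Grm4 5mC changed by -0.0433 and 5hmC by 0.00242.

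The sum of both modifications was then compared, without a test. In the first bin of Grm7 it was 0.851 ± 0.0153 in cortex, 0.891 ± 0.00508 in the olfactory bulb and 0.839 ± 0.0131 in the cerebellum (root of the summed squared SDs). Cerebellum minus cortex was -0.0118 ± 0.0202, while olfactory bulb minus cortex was 0.0406 ± 0.0161 there and 0.0447 ± 0.0195 in the second bin. For Grm4 the sums were 0.789 ± 0.0216, 0.788 ± 0.00927 and 0.748 ± 0.0108 in cortex, the olfactory bulb and the cerebellum, so that cerebellum was lower than cortex by a difference of -0.0409 ± 0.0241. In the first bin of Grm8 the sum was 0.874 ± 0.0207, 0.910 ± 0.00672 and 0.843 ± 0.0134. As a share of the sum, 5hmC made up 25.0%, 25.3% and 26.7% in the bin of Grm4, against medians of 20.5%, 17.7% and 11.1% over all bins in cortex, olfactory bulb and cerebellum. In the first bin of Grm7 the shares were 19.8%, 14.8% and 5.20%, and in the first bin of Grm8 17.3%, 20.6% and 5.52%.

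**Figure D5:**
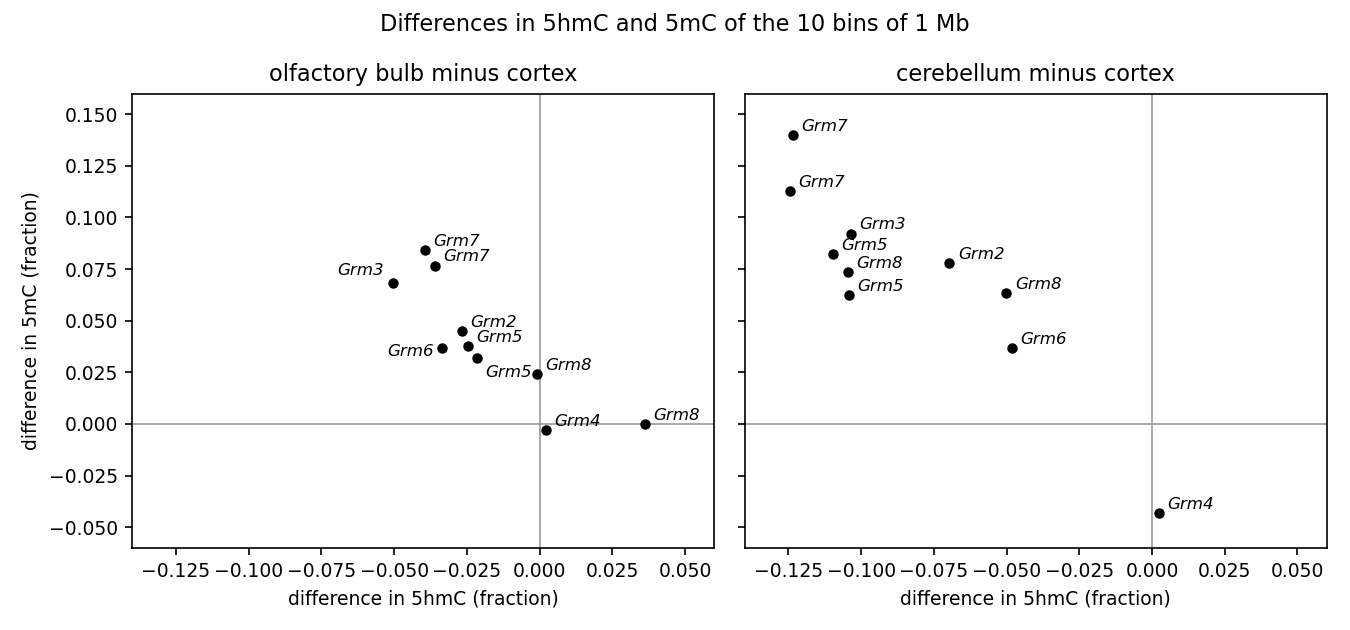
Difference in 5mC (vertical axis, fraction) against difference in 5hmC (horizontal axis, fraction) for the 10 bins of 1 Mb that overlap a receptor gene, for olfactory bulb minus cortex (left) and cerebellum minus cortex (right), with each point a bin and labelled by its gene. On the right, 9 bins lie at upper left (more 5mC, less 5hmC in cerebellum) and that of Grm4 lies below the line at -0.0433.

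Other genes of metabotropic glutamate signalling were counted from a list of 39 (the Homer scaffolds, G proteins, phospholipases, adenylyl cyclases, channels, and glutamate transporters and enzymes), all of which had a level. From cortex to cerebellum 25 rose (55% of all genes) and 2 fell (4.27%), with a median difference of 0.0768 against 0.0444 over all genes. From cortex to olfactory bulb 9 rose (26.4%) and 4 fell (0.868%), with a median of 0.0210 against 0.0299, and from olfactory bulb to cerebellum 19 rose (18%) and 3 fell (7.69%), with a median of 0.0479 against 0.0118. The rises from cortex were largest in Slc1a2, the main glutamate transporter of astrocytes, which went from 0.537 ± 0.0230 (SD, n = 3) to 0.653 ± 0.0171 in the olfactory bulb and 0.720 ± 0.00488 in the cerebellum (SD, n = 2 each; adjusted p = 9.49e-06 and 2.17e-12). The vesicular glutamate transporter Slc17a6 (0.159, adjusted p = 3.59e-10) and Plcb1 (0.151, adjusted p = 1.84e-11), a phospholipase downstream of group I receptors, also rose from cortex to cerebellum. Adcy1 rose from cortex to olfactory bulb by 0.0981 (adjusted p = 0.000113).

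The pathway genes that fell in cerebellum were few. Adcy1, a calcium-stimulated adenylyl cyclase, was at 0.583 ± 0.0299 in cortex (SD, n = 3), at 0.681 ± 0.0146 in the olfactory bulb and at 0.458 ± 0.0101 in the cerebellum (SD, n = 2 each), so that it fell from cortex (adjusted p = 5.07e-07) and from olfactory bulb (adjusted p = 3.07e-13). Plcb4, a phospholipase C expressed in Purkinje cells, fell from cortex to cerebellum by -0.0462 (adjusted p = 0.0271). Gnao1, a G protein subunit gene, fell from olfactory bulb to cerebellum by a difference of -0.0920 (adjusted p = 0.000820). In that comparison Gnai3 (0.202), Plcb1 (0.157) and Homer2 (0.133), a scaffold that binds group I receptors, rose (adjusted p = 1.75e-11, 1.54e-10 and 3.36e-07). From cortex to olfactory bulb, Gnai3 (-0.101), the channel gene Kcnj3 (-0.0785) and Elfn1 (-0.0530), whose product recruits group III receptors across the synapse, fell (adjusted p = 0.000188, 0.00235 and 0.0385).

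The genes with the most similar 5mC were sought among autosomal protein-coding genes over 100 kb on other chromosomes (2210 to 2286 per receptor gene), by the root mean square difference over the 7 libraries. Nrg3 came nearest to Grm7 (0.00632), with means of 0.632, 0.750 and 0.789 in cortex, olfactory bulb and cerebellum, followed by Crim1 (0.0139). Supt3 (0.00606) and Erbb4 (0.00799) were nearest to Grm8, and Ptprd (0.0140) and Foxp1 (0.0148) to Grm3. Myo1e (0.00606) and Rfx3 (0.00687) were nearest to Grm5, Tnik (0.00693) and Rb1 (0.00792) to Grm2, and Nectin3 (0.0157) and Eps15 (0.0160) to Grm6. Grm4 had no gene as close among these candidates. Genes as short as Grm4 (99.017 kb), Grm6 or Grm2 were not among them. Its nearest were Nrg2 (0.0319), with means of 0.556, 0.530 and 0.405, and Rbfox3 (0.0377), with means of 0.519, 0.509 and 0.348.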

How the data were processed

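Levels of 5mC (oxBS-seq, 7 libraries) and 5hmC (TAB-seq, 9 libraries) of mouse cortex, olfactory bulb and cerebellum were analysed, and each library was placed in its tissue by its title. The 6 RNA-seq libraries were not analysed here. Per the labels, the authors mapped reads uniquely to mm10 with Bismark (version not given in the sources used here), and they called sites with a binomial model. The deposited values are the level of each bin as a fraction from 0 to 1, in 26327 bins of 100 kb for 5mC and 2641 bins of 1 Mb for 5hmC. How reads or sites were combined within a bin is not stated, and the deposited values carry no coverage. The study gives an average depth per tissue but the depth behind each bin is unknown, so no counting interval can be given. No label used here names a batch.

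Bins listed at 0 or 1 in at least 1 library were dropped for that assay. Genes were placed by GENCODE release M21 on GRCm38, the same build as mm10. A gene's 5mC was the unweighted mean of the 100 kb bins it overlaps, and its 5hmC that of its 1 Mb bins. limma 3.58.1 (R 4.3.3) was fitted over all bins or genes on log2(level/(1 − level)), or on the fraction scale for gene minus flanks, with Benjamini-Hochberg adjustment. On simulated data, 200 features were changed in cerebellum and sought in cerebellum minus cortex. A change of 1 on the log2 scale was found in 100% of 5mC bins, 5hmC bins and genes, and of 0.5 in 63%, 100% and 68.5%. For gene minus flanks a change of 0.1 was found in 100% and of 0.05 in 26%. The simulated features shared a single spread and had independent noise, and no tissue was shifted as a whole. These shares therefore need not hold for the real data or for the other comparisons. The p-values rest on the spread between these libraries, which limma draws towards a value shared by all bins or genes. For the bins of both assays they hardly reflect the spread of the single bin. Replicates of a tissue came from independent mice, but different tissues may share a mouse, and the sources used here do not say which. The members, the pathway list and the tests were chosen with earlier results of these data known. Every member is named; of the pathway list, the 3 largest called rises and falls per pair without overlap of libraries; and the 2 genes with the most similar profile. Some items that this rule names are not reported here. Alternatives were the fraction scale, centred libraries, no filter, limma's trend and robust options, weights by overlap and only bins wholly inside a gene. Others were 1 Mb bins for 5mC, flanks of 200 kb, the replicate number as a block, and each library left out in turn. For the bins, the number in the library name was also used as a block. The other steps ran in Python 3.11.15 (pandas 2.3.3, numpy 2.4.6), with plots from matplotlib 3.10.9.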

Additional observations from a re-analysis of the deposited data

Results flagged for a closer look

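The receptor genes in this section are those whose 5mC level relative to their flanks differed between tissues, by limma's test of that difference over all 21664 genes. Grm4 fell by the most against its flanks, by differences of -0.227 for cerebellum minus cortex (adjusted p = 2.31e-05) and -0.181 for cerebellum minus olfactory bulb (adjusted p = 6.48e-05). Grm3, Grm5 and Grm7 had a lower level than their flanks in cortex, and this gap was smaller in cerebellum for all 3 and in olfactory bulb for Grm3 and Grm7. Cerebellum minus cortex was 0.0916 for Grm3, 0.0706 for Grm5 and 0.0705 for Grm7, and olfactory bulb minus cortex was 0.0586 for Grm3 and 0.0690 for Grm7. For Grm5 cerebellum minus olfactory bulb was 0.0635. Grm8 and Grm2 were lowest against their flanks in olfactory bulb, with olfactory bulb minus cortex at -0.0394 and -0.0517 and cerebellum minus olfactory bulb at 0.0634 and 0.0427. Both calls of Grm2 and the olfactory bulb minus cortex calls of Grm3, Grm7 and Grm8 depended on single libraries, and without the second olfactory bulb library 0 genes were called in that comparison. The cause of these differences was not tested.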

How the results depend on the processing

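Over the counts of called members, 150 of the alternative values stayed within 1.5 times the reported count and 15 did not. Averaging 5mC into 1 Mb bins left 10 bins to test, of which 7 (olfactory bulb minus cortex), 10 (cerebellum minus cortex) and 8 (cerebellum minus olfactory bulb) were called. With only bins wholly inside a gene, 23 of 23 bins and 4 of the 4 genes that have such bins were called for cerebellum minus cortex. In the main fit 71.9% of all 100 kb bins were called higher and 4.44% lower in that comparison. The counts in this paragraph pool both directions. The shares of all bins or genes called under these settings are not given here, so the counts do not set the receptor genes apart. When a library was left out, cerebellum minus olfactory bulb gave 18 to 30 called bins (28 reported) and 3 to 6 called genes (5 reported), with 18 bins without the first cerebellum library and 3 genes without it or without the second olfactory bulb library. For gene minus flanks, olfactory bulb minus cortex (4 genes reported) gave 2 with flanks of 200 kb and 0 to 3 when a library was left out, with 0 without the second and 1 without the first olfactory bulb library. The cause of these changes was not tested, except that the first 2 settings test fewer bins.

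By the replicate numbers of the labels, deviations of same-numbered libraries from their tissue means had r from -0.0932 to 0.0290 for 5mC and from -0.191 to 0.429 for 5hmC. For oxBS-seq of olfactory bulb and cerebellum, the numbers in the library names differ from those of the labels. By the numbers in the names, r ran from -0.0301 to 0.0458 for 5mC. With so few libraries per tissue, these values cannot show whether same-numbered libraries came from the same mouse. With the replicate block, gene minus flanks for olfactory bulb minus cortex gave 2 genes in place of 4, since Grm2 (adjusted p = 0.0762) and Grm8 (adjusted p = 0.0997) were not called, while Grm3 for cerebellum minus olfactory bulb (adjusted p = 0.0189) and Grm4 for olfactory bulb minus cortex (adjusted p = 0.0356) became called per gene.

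Directions turned in 22 values of single genes. With centred libraries, 5hmC turned to 0.0119 (Grm2), 0.0336 (Grm6) and 0.00418 (Grm8) for cerebellum minus cortex and to 0.0157 (Grm2), 0.00583 (Grm3) and 0.0442 (Grm6) for cerebellum minus olfactory bulb. The value of Grm8 is a mean in which its first bin was lower and its second higher. With flanks of 200 kb, gene minus flanks turned to 0.0194 (Grm2, cerebellum minus cortex) and, for cerebellum minus olfactory bulb, to 0.00750 (Grm6) and -0.000656 (Grm7). With a library left out, cerebellum minus olfactory bulb of Grm6 ran from -0.0384 to 0.0355 per gene and from -0.0359 to 0.0202 against flanks, cerebellum minus cortex of Grm6 against flanks from -0.00473 to 0.0513, and cerebellum minus olfactory bulb of Grm7 against flanks from -0.00177 to 0.00477. The 5hmC differences of Grm4 ran from -0.00511 to 0.0100 (olfactory bulb minus cortex), -0.00488 to 0.0103 (cerebellum minus cortex) and -0.00315 to 0.00434 (cerebellum minus olfactory bulb). The fall of Grm4 5mC from cortex to cerebellum (-0.197 to -0.297) and the rise of Grm7 (0.106 to 0.173) were called in all alternatives run. The number of libraries and the unknown coverage limit the precision of every value.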
